A study of Mus musculus with 59 samples.

Results

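In mouse embryonic stem cells held at 42 °C for 1 h, 1947 windows of 5 kb gained both METTL3 and DGCR8 on chromatin, out of 492558 windows on chromosomes 1 to 19 and 546202 in the whole table. They were chosen from measured values: chromatin immunoprecipitation (ChIP) counts scaled to the library total (CPM, 1 added to each count) were at least 1.7 times higher at 42 °C than at 37 °C in each of 3 precipitate pairs, with at least 30 counts in each precipitate at 42 °C. Of the windows, 455402 had those counts, so 0.428% met the rule. The pairs are DGCR8 and 2 METTL3 preparations that the labels call H4 and H5. Each pair is a single library at 37 °C and a single library at 42 °C, so the ratios are descriptions with no replicate check and no test.

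All cells were ES cells of a 129xC57Bl6 hybrid line. For ChIP they carried the BirA biotin ligase at Rosa26 with FLAG/Avi-tagged DGCR8 or FLAG/Avi-tagged METTL3, and inputs of the heat set were taken at 37 °C only. RNA came from parental cells (Rosa26:BirA, DGCR8 FLAG/Avi; parental 1 and parental 2) and from 4 lines that also lacked METTL3 (METTL3KO; lines 1d1, 3xU, 1d2 and 2c4d), each at 37 °C and after 1 h at 42 °C, 12 libraries in all. The tagged DGCR8 and BirA are therefore shared by heated and unheated RNA samples, while METTL3 precipitates come from other cells than the RNA. The labels do not say whether H4 and H5 are separate clones or whether the lines were derived independently. RNA of 6 ES cell markers summed to between 1828 and 3525 CPM in every library, against 9.02 to 47.4 CPM for 6 primitive endoderm markers and 5.37 to 13.2 CPM for 6 fibroblast markers. For 3 neuroectoderm markers the sums were higher than for those 2 sets in parental and knockout libraries alike, and ranged from 34.6 to 100 CPM over all libraries. Mettl3 RNA, counted over the whole gene, was between 60.4 and 71.5 CPM in parental libraries and between 20.5 and 40.8 CPM in knockout libraries.

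In the heat ChIP set the titles of the METTL3 precipitates and of all but 1 input conflict with their source names, and the titles, which match the column names, were followed; were they wrong, the ratios would compare other libraries. Library totals were 59183560 to 86256100 counts, except for DGCR8 at 37 °C with 20405596. In that library 810 of the 1947 members had under 10 counts, so its ratios are the least precise.

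METTL3 is the catalytic subunit of the complex that writes N6-methyladenosine on nascent RNA, and DGCR8 is the RNA-binding partner of Drosha in the Microprocessor, which cuts microRNA hairpins from primary transcripts. Heat shock activates the transcription factor HSF1, which binds inverted repeats of GAA in promoters and induces chaperone genes within minutes.

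The members that stood out were chaperone genes, and their promoters are shown for that reason. Each line gives the 250 bases before the transcription start in RefSeq (GRCm38.p6), read in the direction of the gene, with matches to GAANNTTC or TTCNNGAA in capitals (each motif is its own reverse complement, so both strands are covered and matches may overlap).
Hspa1a (chr17:34972157-34972406, minus strand): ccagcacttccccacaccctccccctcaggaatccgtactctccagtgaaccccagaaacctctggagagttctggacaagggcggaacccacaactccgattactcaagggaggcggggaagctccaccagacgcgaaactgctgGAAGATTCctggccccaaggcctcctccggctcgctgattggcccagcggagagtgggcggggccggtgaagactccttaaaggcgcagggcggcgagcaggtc
Hspa1b (chr17:34959239-34959488, minus strand): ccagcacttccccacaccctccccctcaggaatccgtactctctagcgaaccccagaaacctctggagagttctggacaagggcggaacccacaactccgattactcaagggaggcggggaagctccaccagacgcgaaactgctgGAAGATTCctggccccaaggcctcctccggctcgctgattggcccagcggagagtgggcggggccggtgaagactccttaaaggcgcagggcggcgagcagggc
Hsph1 (chr5:149636337-149636586, minus strand): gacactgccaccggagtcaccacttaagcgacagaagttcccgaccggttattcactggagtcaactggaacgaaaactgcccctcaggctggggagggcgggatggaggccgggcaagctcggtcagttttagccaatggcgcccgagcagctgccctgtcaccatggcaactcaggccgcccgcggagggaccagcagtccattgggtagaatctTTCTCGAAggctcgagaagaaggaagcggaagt
Hspb1 (chr5:135887669-135887918, plus strand): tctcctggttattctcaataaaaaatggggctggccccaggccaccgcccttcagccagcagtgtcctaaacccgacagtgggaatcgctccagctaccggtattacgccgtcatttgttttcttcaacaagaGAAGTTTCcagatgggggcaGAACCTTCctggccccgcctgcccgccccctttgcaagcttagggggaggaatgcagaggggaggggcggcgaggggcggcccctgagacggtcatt
Hspe1 (chr1:55087898-55088147, plus strand): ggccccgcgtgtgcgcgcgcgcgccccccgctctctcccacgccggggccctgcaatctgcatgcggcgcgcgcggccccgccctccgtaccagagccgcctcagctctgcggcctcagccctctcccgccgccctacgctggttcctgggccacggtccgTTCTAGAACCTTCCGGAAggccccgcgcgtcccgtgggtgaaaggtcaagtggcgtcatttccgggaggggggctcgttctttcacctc
Serpinh1 (chr7:99353240-99353489, minus strand): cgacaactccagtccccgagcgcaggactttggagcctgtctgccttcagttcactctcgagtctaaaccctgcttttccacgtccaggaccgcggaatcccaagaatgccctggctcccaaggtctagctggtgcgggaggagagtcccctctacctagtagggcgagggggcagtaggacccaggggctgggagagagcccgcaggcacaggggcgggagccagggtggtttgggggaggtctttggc
Hspa1a and Hspa1b, neighbouring copies of the inducible Hsp70, differed at 3 of these 250 bases (98.8% identical), and each had its match starting 104 bases before the start. Hsph1, an Hsp110 nucleotide exchange factor, had a match 33 bases before the more upstream of its starts. Hspb1, a small heat shock protein, had 2 matches (117 and 97 bases before), and Hspe1, the mitochondrial Hsp10 co-chaperonin, had 3 overlapping ones (89, 84 and 79 bases before). Over all 32851 promoter entries of the same length, 12.8% had a match and 1.46% had at least 2. Of the 10 heat shock genes with a member window, 9 had an entry and 5 of those had a match. Of the 4 named heat shock genes without a member window, Dnaja4 had 2 matches before 1 of its starts, Dnaja1 had 1, and Hspa4l and Dedd2 had none. Serpinh1, Dnajb1, Hspb8 and Stip1 had none in this window, which says only that these letters are not there.

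The members fell into a small set of windows with many reads after heat and a large set with few. Of windows whose lowest precipitate had at least 1000 counts at 42 °C, 23 of 76 (30.3%) were members. From 500 to below 1000 counts the number was 11 of 863 (1.27%), from 300 to below 500 counts 4 of 12203 (0.0328%), from 100 to below 300 counts 1016 of 318844 (0.319%) and from 30 to below 100 counts 893 of 123416 (0.724%). Counts at 42 °C enter the ratio itself, so a window can reach the upper classes through its gain, and these shares are a description only. The 38 members with at least 300 counts in each precipitate are called high-count members here. That limit was chosen after the values were seen. Their median count in H4 went from 308.5 to 2422, while in the other 1909 members it went from 42 to 120.

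**Figure D1:**
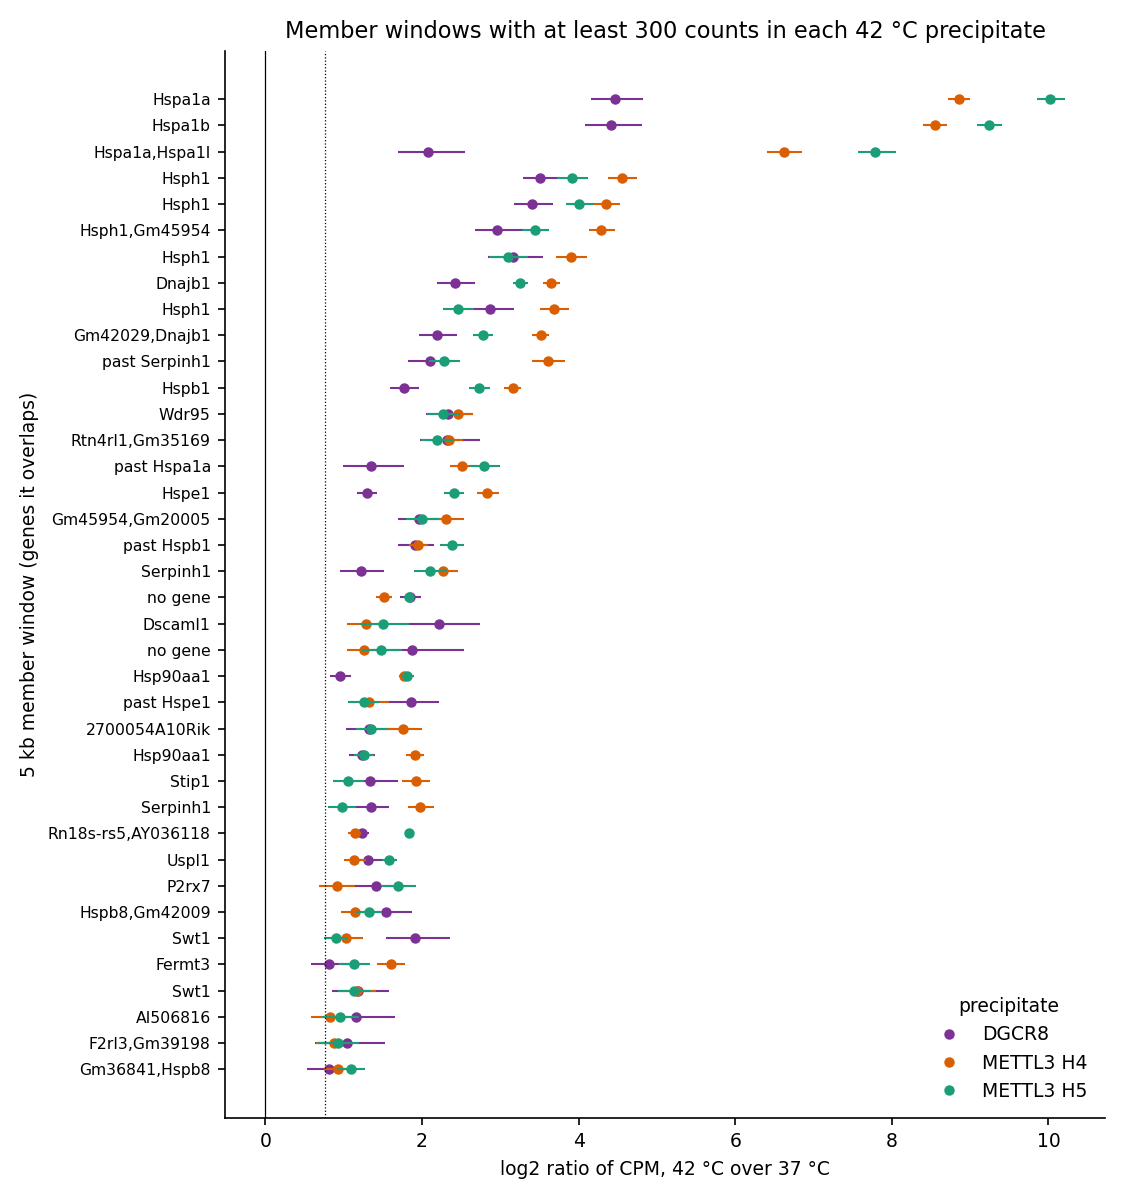
Log2 ratio of CPM at 42 °C over 37 °C (x axis) in the 38 member windows with at least 300 counts in each 42 °C precipitate (y axis, with the genes each overlaps). Points are single libraries for DGCR8, METTL3 H4 and METTL3 H5, bars are exact 95% intervals for counting error, and the dotted line is the ratio of 1.7. The Hspa1a and Hspa1b windows lie far right of the rest for METTL3, while DGCR8 spans 1.75 to 22.1 in the heat shock runs.

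Of the 38 high-count members, 26 lay in 10 runs of adjacent members that touch a gene of a 29-gene heat shock list. In these 26 windows the median ratio was 3.82 for DGCR8, 6.43 for H4 and 5.25 for H5. Both METTL3 ratios were above the DGCR8 ratio in 19 of the 26. Among the other 1909 members this held in 298, and DGCR8 had the highest ratio in 1149 (60.2%). Over all 455402 windows, both METTL3 ratios were above DGCR8 in 141410, and DGCR8 was highest in 45.3%. Among all members, the lowest of the 3 ratios was at least 4 in 13 windows, 12 of them in the heat shock runs, and at least 3 in 20, 15 of them in those runs.

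The largest METTL3 gains were at Hspa1a and Hspa1b. In the window chr17:34965001-34970000, which holds the 3′ part of Hspa1a, H5 had 264 counts at 37 °C and 379653 at 42 °C, a ratio of 1041 (95% counting interval 926 to 1183). H4 went from 395 to 244517 counts there (ratio 463, interval 420.2 to 513), and DGCR8 from 80 to 6952 (ratio 22.1, interval 17.9 to 28.2). All 3 precipitates were higher after heat there, and both METTL3 ratios were above the DGCR8 interval. In chr17:34955001-34960000, which covers Hspa1b, the ratios were 21.3 for DGCR8, 374 for H4 and 606 for H5. The window with the Hspa1a start and part of Hspa1l, a testis Hsp70 gene (chr17:34970001-34975000), had 4.22, 98.3 and 221. Between the copies (chr17:34960001-34965000) they were 2.55, 5.71 and 6.92. These 4 windows took 0.00196% of H4 counts at 37 °C and 0.522% at 42 °C, and 0.00165% and 0.859% of H5 counts, while DGCR8 went from 0.00127% to 0.0176%. The copies are nearly identical, and how reads with several matches were placed is not given in the sources used here, so values for each copy are uncertain.

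Hsph1 had the longest run of members, 7 adjacent windows over chr5:149610001-149645000. It reached from 5 kb past the gene's 3′ end to the window before its start. Counts in the window with the 3′ end (chr5:149615001-149620000) went from 152 to 6761 in DGCR8, from 252 to 7936 in H4 and from 215 to 4468 in H5. That gave ratios of 11.4 (9.74 to 13.5), 23.5 (20.8 to 26.9) and 15.0 (13.2 to 17.4). Within the gene the ratios stayed between 7.29 and 11.4 for DGCR8, between 12.8 and 23.5 for H4 and between 5.49 and 16.1 for H5. In the flanking windows they were 5.02, 5.49 and 4.80 past the end and 3.89, 4.95 and 4.00 before the start.

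The next genes gained less. Dnajb1, the Hsp40 that works with Hsp70, had 2 member windows. In the window with its 3′ end, counts went from 149 to 3126 in DGCR8, from 750 to 12603 in H4 and from 877 to 11529 in H5 (ratios 5.36, 12.6 and 9.54). Hspb1 had 3.42, 8.92 and 6.62 over the gene, and Hspe1 2.46, 7.14 and 5.29 at its 3′ end. Serpinh1, the collagen chaperone Hsp47, had 3 member windows with ratios of 2.33 to 4.29 for DGCR8, 3.95 to 12.2 for H4 and 1.97 to 4.86 for H5. Hsp90aa1, the inducible Hsp90, had 1.94 and 2.35 for DGCR8, 3.41 and 3.75 for H4 and 3.52 and 2.40 for H5. Stip1, which links Hsp70 to Hsp90, had 2.53, 3.79 and 2.08 in the window with its 3′ end. Hspb8, another small heat shock protein, came nearest to the limit, with 1.75, 1.90 and 2.13 in 1 of its 2 windows.

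Over whole genes, 10 of 29 heat shock genes held a member window (34.5%), against 1.5% of 27845 placed genes, and 10 had gene-body ratios of at least 1.7 in all 3 pairs, against 0.208%; 9 genes were in both groups. Dnaja1 met the gene-body limit without a member window and Stip1 held a window without meeting it. The rule used these ratios, so nothing is drawn from the counts. Median log2 gene-body ratios of the list were 0.39 for DGCR8, 0.81 for H4 and 0.52 for H5. In the 19 genes placed of a 20-gene housekeeping list they were -2.20, -1.46 and -1.16, in 19 of 20 splicing factor genes -1.91, -1.15 and -0.62, in 17 of 18 pluripotency genes -1.90, -1.25 and -0.83, and over all genes -0.08, -0.12 and -0.05. None of those 3 lists, nor the 24 immediate early genes placed, held a member window. CPM are shares of a library, so a lower share at some genes and a higher share elsewhere cannot be told apart from these values.

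Members past gene ends were next examined. Each window was put into 1 class, in the order gene body, past an end, before a start and elsewhere. A window past the end of a gene that overlaps another gene thus counts as gene body. Of all members, 271 were classed as up to 50 kb past an annotated gene end (13.9%, against 14.2% of the windows with the counts), 757 as in a gene body (38.9% against 55.9%), 16 as in the 5 kb before a start and 903 as elsewhere (46.4% against 29.0%). Over the 25747 genes with a strand, members were thus in the class past an end about as often as windows in general. With only genes of at least 1 CPM in parental RNA, 66 lay past an end, 3.39% of members against 8.52% of windows, a lower share.

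Unbroken runs of members past the end of a gene of at least 1 CPM were few and short. They began in a member window holding the gene end at 6 genes: Hspa1a, Hspb1, Hspe1, Hsph1, Serpinh1 and Stip1. Unlike the classes above, runs include windows that overlap another gene, as past Hsph1 (Wdr95) and Stip1 (Fermt3). At 5 of the 6 the run was 1 window, 5 kb. At Hspa1a it was 2 windows, 10 kb, the second of which covers Hspa1b itself. At Hspb1 the ratios were 3.42, 8.92 and 6.62 at the end, 3.76, 3.87 and 5.21 in the next window and 0.77, 0.77 and 0.55 in the one after, in the order DGCR8, H4 and H5. At Hspe1 they were 3.62, 2.49 and 2.39 in the window past the end and 0.97, 0.83 and 1.04 after it. At both genes the gain thus reached 1 window past the end window and not the next.

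Serpinh1 and Dnajb1 were the extremes. Past Serpinh1 the next window had 4.29, 12.2 and 4.86, above the gene's own end window, and the following one, which overlaps a neighbouring gene, still had 3.60, 2.52 and 1.57. Past Dnajb1 the next window had 0.57 for DGCR8 beside 1.71 for H4 and 1.33 for H5 and was no member. Past Hspa1b, METTL3 was higher (5.77 for H4 and 5.16 for H5) while DGCR8 was lower (0.38, from 681 to 1004 counts), in a window that holds the noncoding gene 1110038B12Rik and the small nucleolar RNA gene Snord52. Hsp90aa1 has no strand in the tables used. At 4 other genes, Ighmbp2, Plagl1, Rpl11 and Sin3b, a single member lay just past an end window that was no member. Over all genes of at least 1 CPM, the median log2 ratio in the end window was -0.71 for DGCR8, -0.41 for H4 and -0.33 for H5, and -0.17, -0.18 and -0.09 in the window from 5 to 10 kb past it.

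**Figure D2:**
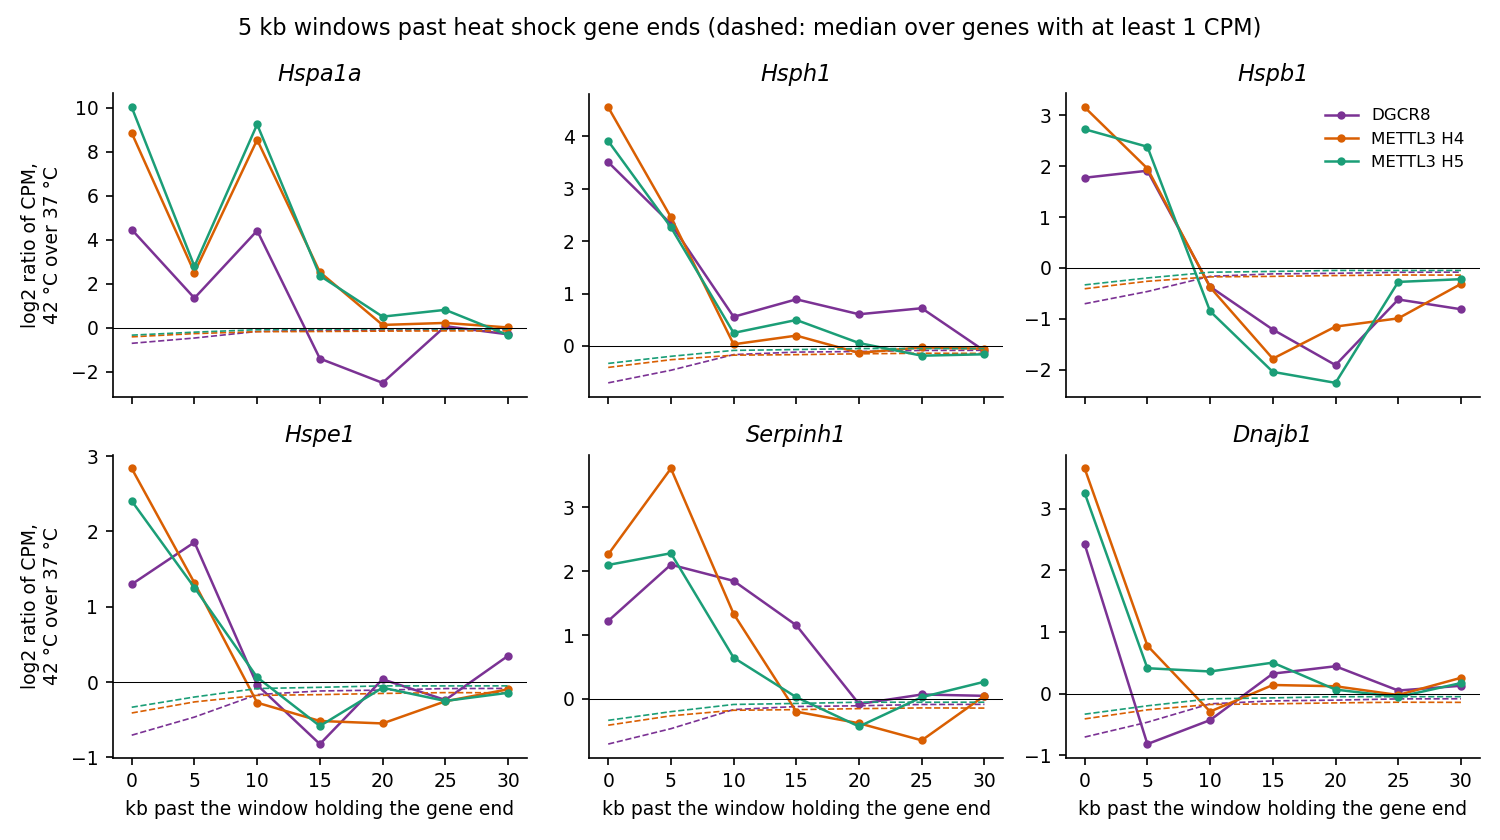
Log2 ratio of CPM at 42 °C over 37 °C (y axis, scaled per panel) by distance past the window that holds the gene end (x axis, kb) for 6 heat shock genes. Points are single libraries per 5 kb window and dashed lines the medians over genes of at least 1 CPM. Hspb1 and Hspe1 are near or below 0 from 10 kb on, and the second peak in the Hspa1a panel is Hspa1b.

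The other 12 high-count members lay in runs that touch no gene of the heat shock list. Rtn4rl1, which encodes a Nogo receptor relative, had the largest ratios, 5.00 for DGCR8, 5.07 for H4 and 4.55 for H5 (chr11:75240001-75245000; 60 to 1186, 332 to 2254 and 211 to 1328 counts). Its RNA was 0.304 to 3.03 CPM over all 12 libraries. Dscaml1, a cell adhesion gene, had 4.66, 2.45 and 2.83, P2rx7, an ATP-gated channel, 2.67, 1.88 and 3.24, and Uspl1, a SUMO protease, 2.48, 2.20 and 2.99. Swt1, an RNA endonuclease gene, had 2 adjacent members with DGCR8 ratios of 3.77 and 2.28. Single windows lay in F2rl3, AI506816 and 2700054A10Rik, and 1 had no gene (chr9:40810001-40815000). The heat shock list gene nearest to that window, Hspa8, lies at chr9:40801276-40805202 and has no strand in the tables, so whether the window is past its end was not examined. The last pair, chr17:39840001-39850000, overlaps the ribosomal RNA repeat fragment Rn18s-rs5 and had 3592 and 5458 counts in the DGCR8 input, where the median high-count member had 370.

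The other 1909 members had low signal in every library. Their medians were 116, 120 and 127 counts at 42 °C and 10, 42 and 45 at 37 °C in DGCR8, H4 and H5. Inputs, which the rule did not use, were low too: median 37, 19 and 38 counts in the DGCR8, H4 and H5 inputs, against 88, 56 and 88 over all 455402 windows. With windows put into 10 equal groups by mean input CPM, the share of members fell from 1.09% in the lowest group to between 0.0527% and 0.0681% in the 3 highest. Over all windows with the counts the median ratio was itself above 1, at 1.19 for DGCR8, 1.08 for H4 and 1.05 for H5. DGCR8 alone was past 1.7 in 24.4% of windows, H4 in 9.33% and H5 in 5.73%. Members just inside the limit (lowest ratio 1.7 to 1.75) numbered 486, and 723 windows lay just outside (1.65 to 1.7). Counting intervals lay above 1 in all 3 pairs in 1856 members and above 1.7 in 47. The rule used these same counts, so the intervals are a description and no check on the gains. The part of input level and of the shallow DGCR8 library in these gains was not tested.

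**Figure D3:**
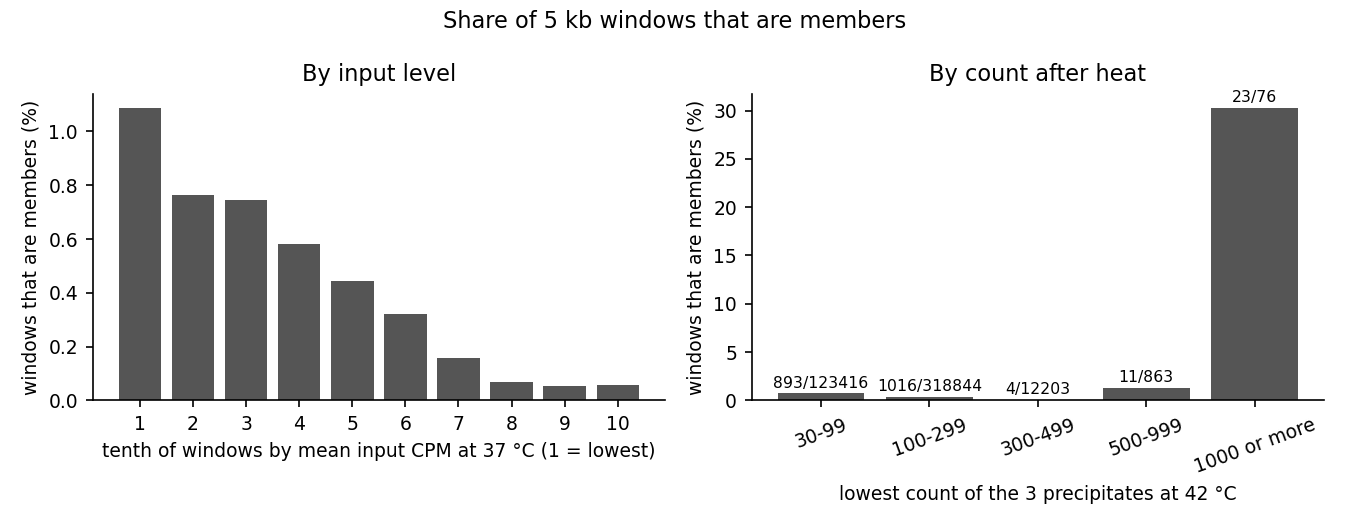
Share of windows that are members (y axes, percent) in 10 equal groups of windows by mean input CPM at 37 °C (left, x axis) and by the lowest count of the 3 precipitates at 42 °C (right, x axis; members and windows are printed above the bars). The share falls from 1.09% in the lowest input group and reaches 30.3% at 1000 counts or more.

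Most of these windows were single and away from active genes. The 1947 members formed 1885 runs, 1834 of them 1 window long (94.2% of members); 46 had 2 windows, 2 had 3, 2 had 4 and 1 had 7. Of windows in the body of a gene with at least 1 CPM in parental cells 119 of 127340 were members (0.0935%), of windows in other genes only 638 of 127190 (0.502%) and of windows without a gene 1190 of 200872 (0.592%). Of the 119, 23 were high-count members.

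They were also unevenly spread along chromosomes. Windows on chromosomes 12, 15, 18 and 19 made up 15.2% of those with the counts and 33.5% of members (652). Chromosome 19 had the highest share, 1.23%, and chromosome 1 the lowest, 0.193%. Windows in the first 20 Mb of a chromosome, the centromere side in the mouse, made up 12.9% of windows and 33.0% of members (642), and the share was higher there than on the rest of the chromosome for 18 of 19 chromosomes, chromosome 11 being the exception. It was 1.31% from 0 to 10 Mb and 0.196% beyond 80 Mb. On chromosome 12 it was 3.55% in the first 20 Mb (107 members) and 0.608% beyond (113). The median input CPM was 0.944 from 0 to 10 Mb, 0.748 from 10 to 20 Mb and 1.67 beyond 80 Mb, and the median log2 ratio of all windows was 0.31, 0.22 and 0.12 at 0 to 10 Mb and 0.21, 0.06 and 0.04 beyond 80 Mb. The part of these values in the spread of members was not tested.

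Apart from Hsph1, the genes with most members in the body or up to 50 kb past the end were long, and most made little RNA here. Rbfox1, a neuronal splicing factor gene of 1528 kb, held 14 members among 307 windows, and its RNA was at most 0.21 CPM in any library. Its gene-body ratios were 1.61, 1.40 and 1.22. Of the 12 matched genes with most members, Hsph1 was the only one that held a high-count member. Opcml and Ntm (neural adhesion), Myt1l (a neuronal transcription factor), Kcnma1 (a potassium channel), Lrmda, Slc22a27 (an organic anion transporter relative) and Gm16630 held 5 or 6 each, with RNA of at most 1.26 CPM in every library. Nbas, a trafficking gene with 6 members among 75 windows, was expressed, at 50.7 to 59.2 CPM in parental and 31.1 to 55.4 CPM in knockout libraries. Its RNA fold change did not pass (edgeR, log2 -0.02 ± 0.27 SE, adjusted p = 1 in parental cells; 0.02 ± 0.19, adjusted p = 1.00 in knockout cells). Ctnnd2 (a catenin; 0.46 ± 0.56, adjusted p = 1, and -0.75 ± 0.39, adjusted p = 1.00) and Cntnap2 (a neurexin relative; -0.27 ± 0.69, adjusted p = 1, and -0.54 ± 0.54, adjusted p = 1.00) did not pass either.

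The RNA libraries were not used by the rule, so heat changes in RNA were tested. They are bulk libraries, in which fewer cells of a type and less RNA per cell cannot be told apart. A member window lay in the body of 640 genes, with a median length of 78796 bp; 419 were in the RNA table and 115 passed the filter on low counts. Among the 115, in parental cells, 2 rose and 0 fell (edgeR quasi-likelihood test, adjusted p below 0.05), where 0.0128% of 15635 genes rose and 0.0064% fell. In knockout cells 6 rose and 0 fell, where 0.166% rose and 0.0192% fell. With the cell line as a block, 7 of the 115 rose in parental cells, where 0.441% of all genes rose and 0.32% fell, and 11 rose in knockout cells, where 3.87% rose and 2.9% fell; 0 of the 115 fell. Most of the 640 were not measured at this depth, so the counts do not cover them. The median log2 fold change of the 115 was -0.02 in parental cells and -0.03 in knockout cells, against -0.01 and -0.02 over all genes. The genes that rose all held a high-count window, except Gm10557 in knockout cells with the block: 17 genes with such a window were tested, with medians of 0.47 and 0.51.

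Hspa1a RNA was 1.06 and 0.66 CPM in the parental cells at 37 °C and 163 and 246 CPM at 42 °C. In the knockout lines it was 0.74, 0.94, 1.56 and 0.98 CPM at 37 °C and 175, 205, 245 and 170.3 CPM at 42 °C. The groups did not overlap in either genotype, and the rise was 7.86 ± 0.41 on the log2 scale in parental cells (SE, edgeR adjusted p = 1.78e-06) and 7.53 ± 0.29 in knockout cells (adjusted p = 3.63e-08). Hspa1b rose by 7.07 ± 0.41 (adjusted p = 2.96e-06), from 1.67 and 3.53 CPM to 293 and 406 CPM, and in knockout cells by 6.51 ± 0.28 (adjusted p = 7.93e-08), from 3.27 to 5.75 CPM to 367 to 426 CPM. Hspa1l, which shares a member window with Hspa1a, rose in knockout cells by 3.35 ± 0.59 (adjusted p = 0.0466), to at most 2.83 CPM. Because the counting strand is not given in the sources used here, reads of its strong neighbour Hspa1a cannot be told apart from its own.

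Dnajb1 RNA was 29.4 and 38.4 CPM in parental cells at 37 °C and 170 and 208 CPM at 42 °C, a log2 fold change of 2.48 ± 0.42 that did not pass (edgeR adjusted p = 0.147) but passed with the line as a block (5.78e-06), without the filter on low counts (0.000172) and with DESeq2 (1.42e-05). In knockout cells it rose by 2.22 ± 0.30 (adjusted p = 0.00721), from 81.4, 34.1, 40.3 and 68.0 CPM to 365, 201, 197 and 279 CPM. Serpinh1 was 48.1 and 50.6 CPM, then 125 and 109 CPM, in parental cells (1.25 ± 0.23, edgeR adjusted p = 0.189; 0.00454 with the block and 0.000257 with DESeq2) and rose in knockout cells by 1.05 ± 0.16 (adjusted p = 0.0194), from 59.8 to 84.7 CPM to 120 to 165 CPM. Hsph1 was 255 and 175 CPM, then 599 and 398 CPM, in parental cells (1.21 ± 0.39, adjusted p = 1; 0.00897 with the block). In knockout cells it rose by 1.71 ± 0.28 (adjusted p = 0.0315), from 257, 293, 226 and 200 CPM to 885, 1196, 663 and 448 CPM. In each of these genes, no heated library was as low as an unheated library of its genotype. How many of all genes were separated in this way was not counted, here or for Hspa1a. Each parental group held only 2 libraries, so nothing is drawn from the separation there. With each of the 8 knockout libraries left out in turn, Hspa1a, Hspa1b and Dnajb1 passed in 8 of 8 edgeR fits. Hsph1 passed only without 1d2 or 2c4d at 42 °C (adjusted p up to 0.129), Serpinh1 only without 2c4d at 37 °C or 1d1 at 42 °C (up to 0.0926) and Hspa1l in 0 of 8 (adjusted p 0.0576 to 0.155). These fits did not have the line as a block. With it and all libraries, Hsph1, Serpinh1 and Hspa1l passed in knockout cells (edgeR adjusted p = 4.23e-05, 0.000374 and 0.00219).

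The other 5 heat shock genes with a member window had smaller RNA differences. None passed without the block. With the line as a block, Hspb8 rose in parental cells (log2 0.87, adjusted p = 0.00897) and in knockout cells (0.62, adjusted p = 0.00181), while Hspb1 (1.00, adjusted p = 0.00206) and Hspe1 (0.49, adjusted p = 0.00804) rose in knockout cells only by that test; in parental cells they had 0.47 (adjusted p = 0.279) and 0.48 (adjusted p = 0.107). Hsp90aa1 (0.26 ± 0.33 and 0.28 ± 0.23) and Stip1 (0.36 ± 0.19 and 0.22 ± 0.14) passed in neither genotype with or without the block. On the log2 scale, gene-body ratios at Hspb8, Hsp90aa1 and Stip1 were 0.87 to 1.81 in METTL3 H4 and 0.74 to 1.65 in H5. In DGCR8 they were 0.91 to 1.07, and the log2 RNA differences of these 3 genes were 0.22 to 0.87. At Hspb1 the ratios were 1.77 in DGCR8, 3.16 in H4 and 2.73 in H5, beside RNA differences of 0.47 in parental and 0.98 in knockout cells. At Hspe1 they were 1.03, 2.06 and 1.62, beside RNA differences of 0.47 in both genotypes.

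**Figure D4:**
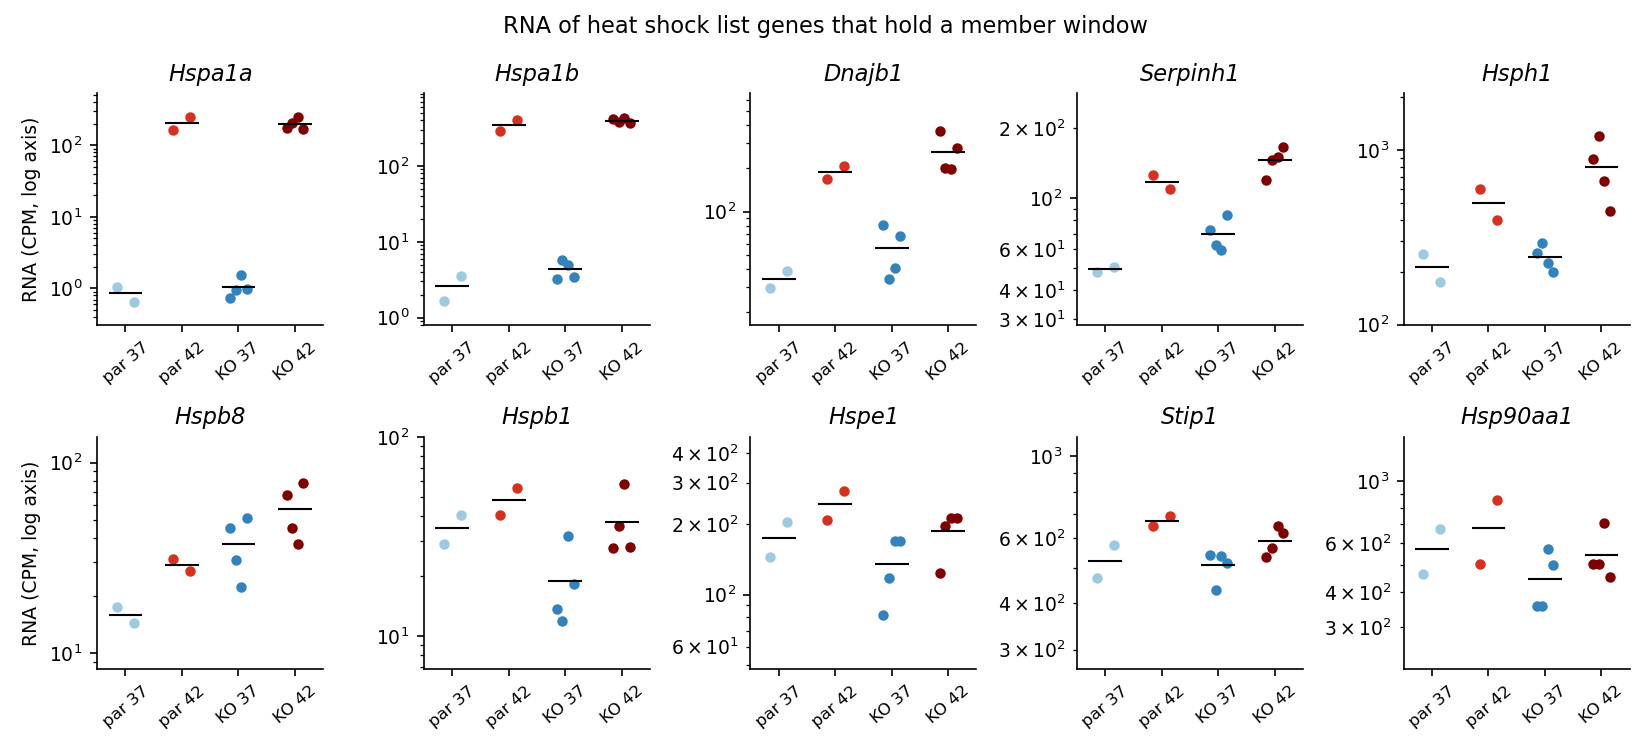
RNA level (y axis, TMM-scaled CPM on a log axis, scaled per panel) of the 10 heat shock list genes with a member window, in 2 parental (par) and 4 Mettl3 knockout (KO) lines at 37 °C and 42 °C (x axis). Points are libraries and bars are means. Hspa1a lies between 0.66 and 1.56 CPM at 37 °C and between 163 and 246 CPM at 42 °C, while the knockout groups of Hspb8, Hspb1, Hspe1, Stip1 and Hsp90aa1 overlap.

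Heat shock genes without a member window also changed. Of the 10 with one, 2 rose in parental cells (6 with the block) and 5 in knockout cells (8 with the block). Of the 19 without, 0 rose in parental cells (1 with the block) and 2 in knockout cells (7 with the block); no gene fell. The difference between the 2 groups was not tested. Over all 15635 genes, 0.0128% rose in parental cells and 0.166% in knockout cells (0.441% and 3.87% with the block). Dnaja4, an Hsp40, rose in knockout cells by 2.07 ± 0.26 (edgeR adjusted p = 0.0055) with gene-body ratios of 0.70, 1.89 and 1.08, and Dedd2, a death effector domain gene, by 1.06 ± 0.18 (adjusted p = 0.0395) with 1.14, 1.07 and 1.12. The Dedd2 call was lost without the filter on low counts (edgeR adjusted p = 0.0529) and in each of the 8 fits that left out a knockout library (0.0724 to 0.149), while Dnaja4 passed in all of these (up to 0.031). None of these fits had the line as a block. With it, Dedd2 rose in knockout cells (log2 1.07, edgeR adjusted p = 0.00179) and in parental cells (1.16, adjusted p = 0.0376). Hspa4l, an Hsp110 relative, had 1.58 ± 0.33 (adjusted p = 0.121; 0.00324 with the block) with 2.36, 1.75 and 1.44. Dnaja1 had 0.75 ± 0.24 (adjusted p = 0.598; 0.0291 with the block) with 1.79, 2.18 and 1.80. Dnaja4 RNA thus rose in knockout cells at a gene whose body reached 1.7 in H4 only.

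**Figure D5:**
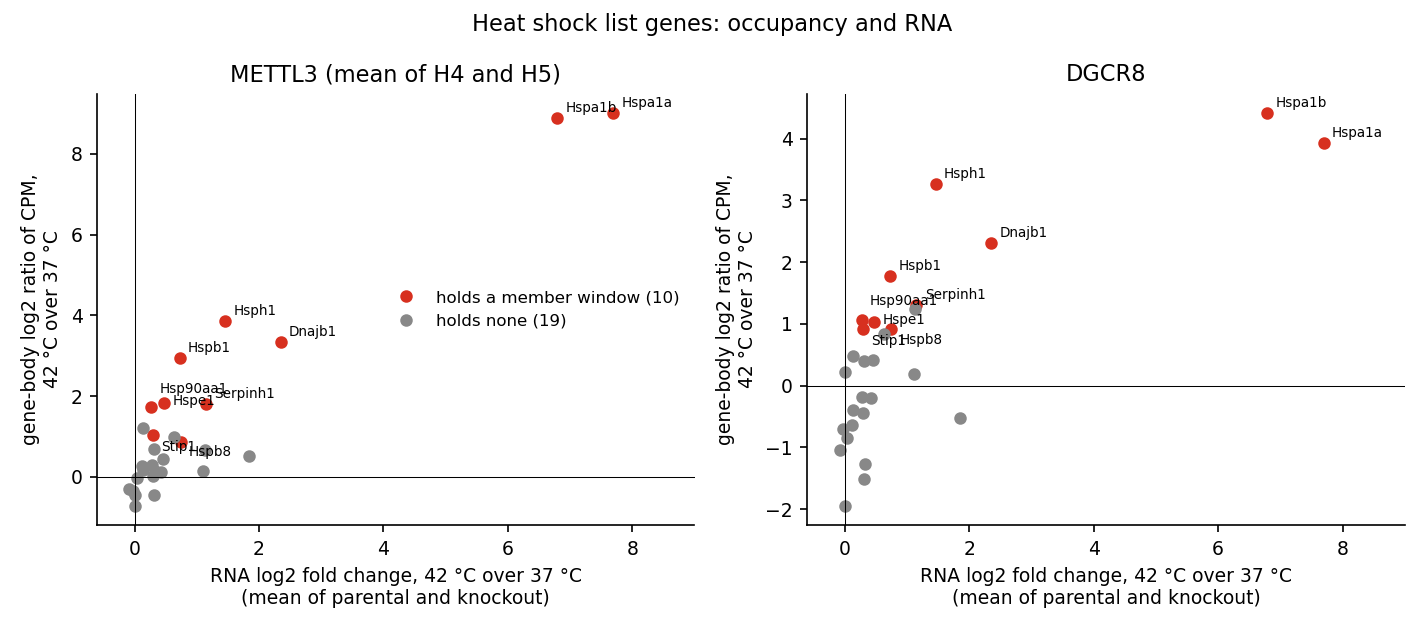
Gene-body log2 ratio of CPM at 42 °C over 37 °C for METTL3 (left, y axis, mean of H4 and H5) and DGCR8 (right, y axis) by RNA log2 fold change (x axes, mean of parental and knockout contrasts) in the 29 heat shock list genes. Each point is a gene; 10 hold a member window and 19 do not. Hspa1a and Hspa1b are far from the rest in both panels, and Dnaja4 is the gene without a member window that lies farthest right.

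The heat response of RNA was next compared between genotypes. The difference between the heat effects in knockout and parental cells passed for 0 of 15635 genes (edgeR; 208 with an unadjusted p below 0.05; DESeq2 called 8 and the fit with the line as a block 2), and for 0 of the 115 genes with a member window with or without the block. It was -0.34 ± 0.46 for Hspa1a, -0.56 ± 0.41 for Hspa1b, -0.26 ± 0.49 for Dnajb1, -0.19 ± 0.27 for Serpinh1 and 0.50 ± 0.47 for Hsph1 (adjusted p = 1.00 for each). With 2 parental lines, these errors of the fit without the block leave differences of over 1 log2 unit possible for Hspa1a, Hspa1b, Dnajb1 and Hsph1. With the line as a block the differences were, in the same order, -0.31 ± 0.36, -0.57 ± 0.27, -0.23 ± 0.16, -0.19 ± 0.18 and 0.43 ± 0.20 (edgeR adjusted p 0.815 to 0.927). Equal responses are not shown by either fit. The summed RNA of the 6 primitive endoderm markers was 41.8 to 47.4 CPM in parental and 9.02 to 13.0 CPM in knockout libraries, with none of the 6 at 0, and its part in the comparison was not tested.

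The windows were then looked up in ChIP sets that the rule did not use, none of them heated. METTL3 precipitates (4 libraries from 2 tagged clones, whose source names also conflict with their titles) were compared with 2 inputs in 454727 windows, of which 13.9% were higher than input and 8.86% lower (edgeR). Of 1843 members tested, 216 were higher (11.7%) and 56 lower (3.04%). With TMM scaling the split turned: 67 members were higher and 93 lower, and over all windows 4.4% and 12.9%. Members were thus not called above input more often than windows in general under either scaling. Their median log2 ratio was higher, at 0.35 against 0.26 over all windows and 0.13 against 0.05 with TMM.

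Of the 38 high-count members, 7 were higher than input and 12 lower. The window chr12:110690001-110695000 in Hsp90aa1 was highest (log2 3.35 ± 0.27, adjusted p = 4.34e-22), followed by Uspl1 (1.67 ± 0.22, adjusted p = 9.69e-11), Swt1 (1.65 ± 0.24, adjusted p = 3.53e-09 and 0.84 ± 0.24, adjusted p = 0.00638), the Hspe1 3′ window (1.25 ± 0.21, adjusted p = 7.77e-07), the Dnajb1 3′ window (1.08 ± 0.20, adjusted p = 6.96e-06) and a window inside Hsph1 (0.84 ± 0.22, adjusted p = 0.00271). The Hspa1a 3′ window, which had the largest heat ratios, did not pass (0.24 ± 0.19, adjusted p = 0.37). The lowest was a ribosomal RNA repeat window (-3.06 ± 0.30, adjusted p = 1.32e-16). Windows with the start of Hsph1 (-1.44 ± 0.18, adjusted p = 2.25e-11), Hspa1a (-0.95 ± 0.19, adjusted p = 3.02e-05) and Dnajb1 (-0.65 ± 0.18, adjusted p = 0.00373) were lower too, so at Hsph1 and Dnajb1 a start window below input stood beside a window above it. Lower windows were not only at starts. The window past the Hspe1 end had -1.90 ± 0.17 (edgeR adjusted p = 1.14e-18). At Serpinh1 the 3′ end window (-1.70 ± 0.18, adjusted p = 2.13e-15) was lower than the start window (-0.53 ± 0.18, adjusted p = 0.021). The heat set's inputs were higher in the Hsph1 start window than in the window next to it inside the gene. The H4 input had 613 counts against 102, the DGCR8 input 493 against 200 and the H5 input 377 against 226.

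DGCR8, Drosha and Dicer precipitates had 1 library each and are described only. The median log2 ratio over input in the 1947 members was 0.52 for DGCR8 after DSG crosslinking (all windows 0.32), 0.43 for DGCR8 in a further wild type set (all windows 0.10), 0.35 for Drosha (all windows 0.17) and 0.00 for Dicer (all windows 0.00). In the 38 high-count members the medians were -0.25, -0.24, -0.22 and -0.10. DGCR8 in Mettl3 knockout over wild type cells had a median of -0.06 in members and 0.01 in all windows. The medians of the high-count windows were thus below 0 for each of the 4 ratios over input, with an SD between windows of 0.281 to 1.05.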

How the data were processed

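The ChIP and RNA tables were used as deposited by the authors: read counts per 5 kb window and per gene. The submitters' processing notes name Bowtie and the build mm10. The aligner's options and version, the counting strand and the annotation are not given in the sources used here. Members and gene lists were chosen with earlier results of these data known. ChIP values were divided by the total of all windows (CPM), with 1 added to each count for ratios; 95% intervals are exact binomial and cover counting error only. RNA libraries had 7102867 to 13579892 counts. They were tested with edgeR 4.0.16 (R 4.3.3; TMM, filterByExpr, quasi-likelihood F test, Benjamini-Hochberg adjustment over 15635 genes, threshold 0.05), with 1 fit for all 12 libraries and CPM scaled by TMM; unheated METTL3 libraries were tested against inputs the same way without TMM, in windows averaging 10 counts or more. Scripts were tested on simulated data. DESeq2 1.42.0 and the alternatives of the closing section were also run. Cell lines named in the titles pair the 37 °C and 42 °C libraries: their deviations from the group means correlated at 0.476 to 0.742 for the same line. For other lines the correlation was at most -0.012, but centring on the group means pulls it toward negative values, so nothing is drawn from it. Values with the line as a block are given where they change a call. The p-values measure the spread between these libraries, which may be technical. Genes were placed by symbol with RefSeq GRCm38.p6: 47038 genes on chromosomes 1 to 19, 25747 with a strand and 28953 in the RNA table; none of 62 histone genes was placed. Named genes were the 12 with most members, up to 8 rising and 5 falling genes with a member in the body (largest fold first, mean log2 CPM at least 2), heat shock genes with a member, 4 without, and 3 of the genes with most members whose RNA did not pass. Genes of high-count windows outside this rule were named after their values were seen. ChIP column count not used because its name did not settle the sample: 1. RNA of the DGCR8 and Drosha floxed lines was not analysed here.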

Additional observations from a re-analysis of the deposited data

Results flagged for a closer look

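Among 35 sets of 4 knockout libraries looked at for the named genes, 3 had a library far from the other 3 (gap test at the 95% level; chance gives about 1 in 20). Nbas RNA in line 3xU at 37 °C was 53.3 CPM, where the other lines had 37.5 to 39.8 CPM. Dnaja4 RNA in line 1d1 at 42 °C was 7.07 CPM, where the others had 10.7 to 11.2 CPM. Hspa4l RNA in line 3xU at 42 °C was 44.0 CPM, where the others had 15.4 to 19.0 CPM.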

How the results depend on the processing

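The number of members moved with the rule: 6517 at a ratio of 1.5, 396 at 2.0, 877 with 5 added to each count, 38 with 300 counts, 4854 without the DGCR8 pair, 9440 without the H4 pair and 15772 without the H5 pair (the last 4 chosen after seeing the data). Of these, a ratio of 2.0 and 5 added could remove a high-count member: they kept 30 and 38 of the 38, and a member at each of the 10 heat shock genes. Members classed as past a gene end numbered 123 within 20 kb (6.32% of members, 7.69% of windows) and 437 within 100 kb (22.4%, 20.5%). For expressed genes only they numbered 66 (3.39%, 8.52%). Members were thus below windows in general within 20 kb and for expressed genes only, and above them within 100 kb. For parental RNA the calls were 119 with the line as a replicate block (69 rose), 30 with DESeq2 and 22 without the filter; genes with a member that rose were 7 with the block and 5 with DESeq2. For knockout RNA they were 1058 with the block (605 rose), 108 with DESeq2 and 46 without the filter, and 11 genes with a member rose with the block. The difference gave 2 with the block, 8 with DESeq2 and 24 without the filter. Leaving out a library gave 2 to 3 calls in parental cells, 14 to 23 in knockout cells and 0 for the difference; genes with a member that rose in knockout cells numbered 3 to 4. Members called above METTL3 input were 67 with TMM and 176 to 231 without a library. The cause of these moves was not tested. Depth limits DGCR8 at 37 °C most, and 304 of 419 genes with a member were too low in RNA to test.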

Other observations

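On the X chromosome, which the rule leaves out, 268 of 24498 windows met the same limits (1.09%), against 0.428% on chromosomes 1 to 19.

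RNA of other lists was also tested after heat; histone genes were not placed, so whether they hold member windows was not examined. Of 22 immediate early genes tested, 0 passed in parental cells and 2 rose in knockout cells (edgeR; with the line as a block 3 rose in parental cells, and 12 rose and 2 fell in knockout cells). Of 53 histone genes tested, 0 and 2 rose (6 and 21 with the block), with median log2 fold changes of 0.63 and 0.56. Of 18 pluripotency genes, 0 passed and 3 and 6 fell with the block. Over all 15635 genes, with the block, 0.441% rose and 0.32% fell in parental cells, and 3.87% and 2.9% in knockout cells. Without it 0.0128% rose in parental cells and 0.166% in knockout cells.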
